A study of Mus musculus with 12 samples.

Results

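The 31 genes described here make cholesterol, sense it, carry it into and within the cell or pass it out. Members were chosen by name, as the probe sets of the array whose single gene symbol in the platform annotation is a member. 28 members had such a probe set and all 28 passed the filter on dim signals, of 12136 genes tested and 18193 genes on the array. Signals of Acat2, Nr1h2 and Soat1 were not analysed here. The 28 genes carried 61 probe sets, 56 of them kept, of 45101 on the array and 25053 kept.

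Cells build sterols from acetyl groups through mevalonate, isoprenoid units, squalene and lanosterol. When sterols in the endoplasmic reticulum run low, the escort protein SCAP takes the transcription factor SREBP2 to the Golgi, where it is cleaved and then turns on genes of this pathway, while INSIG proteins hold SCAP back when sterols are plentiful. LXR receptors are activated by oxidised sterols and turn on exporters such as ABCA1 and ABCG1, and fat cells hold a large share of the body's free cholesterol in their membranes and lipid droplets.

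The cells were 3T3-L1, a mouse fibroblast line that forms fat cells in culture, so every array comes from the same line. Per the labels, fat cell formation was started in all 4 groups by 48 h of insulin (5 µg/ml), dexamethasone (1 µM) and IBMX (0.5 mM). The cells were used at days 8 to 10 and spent the last 12 h before treatment in medium with 0.2% albumin in place of serum. A control group received DMSO, and the other 3 groups received berberine, an alkaloid of medicinal plants, at 5 µM for 3, 6 or 12 h. Each group had 3 arrays. How long the DMSO was left on is not given in the labels, and the 3 DMSO arrays serve all 3 contrasts, so hours of berberine and hours in culture cannot be told apart. The labels do not say that the arrays of a group came from separate cultures, so p-values measure only how far these arrays differ, and that spread may be technical.

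All values below are log2 signals, and each gene is represented by its brightest kept probe set, with those of the _x_at type used only where there was no other. A difference of 1 is a doubling, and a gene was called where limma's p, adjusted over all 12136 genes by the Benjamini-Hochberg method, was under 0.05. Between 47.9% and 51.6% of probe sets reached the detection threshold on each array. The 8 mature adipocyte markers and the 9 fibroblast or preadipocyte markers on the array were above it on all 12 arrays. The summed linear signal of the adipocyte markers was 159942 to 205430 in DMSO and 172553 to 190462 at 12 h, with 4 of the 8 called lower and 1 higher at 12 h. That of the fibroblast markers was 103494 to 121568 in DMSO and 121128 to 126485 at 12 h, with 3 of 9 called higher and 2 lower. Of 8 macrophage markers, Ptprc, Adgre1, Itgam and Mrc1 did not pass the filter. Cd68, Csf1r, Lyz2 and Cd14 passed it, 2 of them above the threshold on all 12 arrays. Of these 4, Cd14 was called higher at 6 h (0.34, limma adjusted p = 0.0292) and 12 h (0.38, adjusted p = 0.00761). The others were not called. Of 6 endothelial markers only Kdr passed. Fewer cells of a type and less RNA per cell cannot be told apart in these bulk samples, and the part of these marker changes in the results was not tested.

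The second DMSO array stood apart for these genes. It was the lowest of the 3 DMSO arrays in 23 of the 28 members, against 34.9% of all genes tested, and its median deviation from the DMSO mean over the members was -0.12, against 0.05 and 0.08 for the other two. After quantile normalization it was the lowest in 25. Counts of called genes against DMSO are therefore given with and without that array. The contrasts between berberine times take no difference from it.

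**Figure D1:**
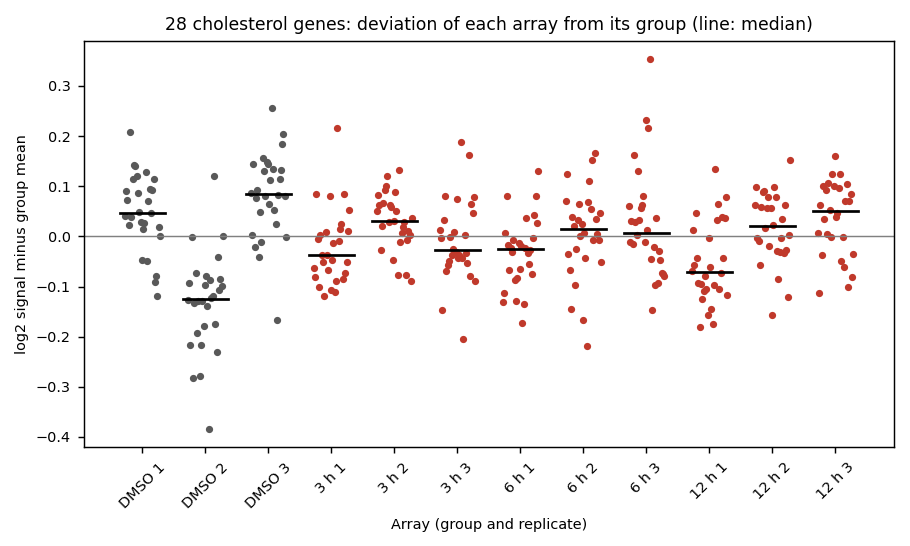
Log2 signal minus the mean of its group (vertical axis) for the 28 genes on each of the 12 arrays (horizontal axis, group and replicate). Each point is a gene, the black line is the median over the genes, and DMSO arrays are grey. The median of the second DMSO array lies at -0.12, below the 0.05 and 0.08 of the other DMSO arrays.

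Promoter sequences from RefSeq (build GRCm38.p6) were found for 25 of the 31 members, in 32 windows of 300 bases that run from 250 bases before a transcription start to 50 after it. Shown are the 250 bases before the start for the genes with a window whose representative probe set rose most (Idi1, Cyp51, Sc5d and Lss, the last 2 of which differed between probe sets), for Insig1, which was called at 6 h alone, for Hmgcs1, the synthase at the head of the mevalonate branch, and for Tm7sf2, a synthesis gene that fell. Capitals mark matches, on either strand, of CACNCCAC, the core of a sterol regulatory element that SREBP binds, and of CCAAT, the box bound by NF-Y, a factor known to work beside SREBP.
Idi1 (chr13:8885356-8885605, plus strand): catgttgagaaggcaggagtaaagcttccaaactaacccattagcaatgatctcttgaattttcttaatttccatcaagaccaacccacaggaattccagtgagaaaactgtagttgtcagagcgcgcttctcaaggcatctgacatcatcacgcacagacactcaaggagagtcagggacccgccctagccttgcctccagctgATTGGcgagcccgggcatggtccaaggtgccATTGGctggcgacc
Cyp51 (chr5:4104698-4104947, minus strand): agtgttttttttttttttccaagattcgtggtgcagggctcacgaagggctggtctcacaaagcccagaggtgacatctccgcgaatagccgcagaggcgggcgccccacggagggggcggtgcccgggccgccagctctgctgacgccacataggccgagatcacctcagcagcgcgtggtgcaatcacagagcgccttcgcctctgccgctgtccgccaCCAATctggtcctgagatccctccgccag
Sc5d (chr9:42264301-42264550, minus strand): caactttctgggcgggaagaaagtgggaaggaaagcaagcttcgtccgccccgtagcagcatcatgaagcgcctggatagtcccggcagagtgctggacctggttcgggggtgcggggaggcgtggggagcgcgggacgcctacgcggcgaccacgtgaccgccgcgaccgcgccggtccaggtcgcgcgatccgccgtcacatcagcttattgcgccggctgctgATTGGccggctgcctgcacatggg
Lss (chr10:76531355-76531604, plus strand): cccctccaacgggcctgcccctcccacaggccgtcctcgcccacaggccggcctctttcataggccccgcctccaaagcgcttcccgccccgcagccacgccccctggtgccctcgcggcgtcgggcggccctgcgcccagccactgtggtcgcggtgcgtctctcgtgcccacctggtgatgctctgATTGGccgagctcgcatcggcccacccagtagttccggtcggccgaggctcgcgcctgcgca
Insig1 (chr5:28071162-28071411, plus strand): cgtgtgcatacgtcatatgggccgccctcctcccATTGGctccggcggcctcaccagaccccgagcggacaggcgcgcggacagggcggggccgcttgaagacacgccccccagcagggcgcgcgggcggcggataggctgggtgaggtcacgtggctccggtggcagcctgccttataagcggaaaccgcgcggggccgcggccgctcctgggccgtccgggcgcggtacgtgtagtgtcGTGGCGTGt
Hmgcs1 (chr13:119690101-119690350, plus strand): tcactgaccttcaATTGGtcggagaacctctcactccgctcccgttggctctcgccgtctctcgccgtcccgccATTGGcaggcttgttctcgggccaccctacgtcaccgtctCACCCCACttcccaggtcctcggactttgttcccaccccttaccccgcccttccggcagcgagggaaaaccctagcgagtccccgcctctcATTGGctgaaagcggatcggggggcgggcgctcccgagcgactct
Tm7sf2 (chr19:6067851-6068100, minus strand): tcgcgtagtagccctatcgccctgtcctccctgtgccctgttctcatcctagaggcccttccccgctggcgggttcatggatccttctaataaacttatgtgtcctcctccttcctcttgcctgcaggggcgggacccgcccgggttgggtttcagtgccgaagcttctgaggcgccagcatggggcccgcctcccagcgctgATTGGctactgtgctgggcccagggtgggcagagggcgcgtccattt

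In these windows CCAAT was common and the exact string CACNCCAC was rare. Other forms of a sterol element were not searched for, so a window without a match is not shown to lack one. CCAAT stood in 62.5% of the 32 member windows, against 37.4% of all 32851 windows of that length. All 10 of the members with a window that were called higher against DMSO held it in any window. So did 9 of the 12 tested members that were not called higher. Counted by gene in this way, 41.1% of all 27025 genes held it. Pmvk held it in the window at chr3:89454291 and not in the window at chr3:89459321. The first base of the nearest CCAAT lay 14 bases before the start in Idi1, 29 in Cyp51, 24 in Sc5d and 62 in Lss. CACNCCAC stood in 9.38% of member windows (Acat2, Hmgcs1 and Insig1) and in 6.24% of all windows. GGGCGG, a box bound by Sp1, stood in 78.1% of member windows and 35.7% of all. TGATGNAA, an element bound by ATF4, stood in 9.38% and 3.97%. Counted by gene it stood in 2 of 25 members (8%) and in 4.51% of all genes, as Insig2 held it in separate windows. No match overlapped a match of another motif. A match is a string of letters in this window, and its use in these cells was not tested.

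Berberine was followed by higher signals of many synthesis genes from 6 h on. The exporter Abcg1 was lower at 6 and 12 h and Nr1h3, the gene of the receptor LXR alpha, at 12 h. The exporter Abca1 was not called against DMSO in its brightest probe set, and a dim probe set of it was called higher at 12 h. At 3 h, 0 of 28 members were called, where 1.9% of all genes were (1.09% higher and 0.816% lower), and 4 members had an unadjusted limma p under 0.05, 3 of them higher. At 6 h, 11 of 28 were called, 10 higher and 1 lower, where 14.2% of all genes were called (7.24% higher and 6.98% lower). At 12 h, 16 of 28 were called, 13 higher and 3 lower, where 28.2% of all genes were called (13.7% higher and 14.6% lower). Without the second DMSO array the counts were 0, 8 (7 higher, 1 lower) and 16 (11 higher, 5 lower), the last sharing 14 genes with the full set. In that fit 2.05%, 12.5% and 25.5% of all genes were called. The median log2 difference over the members was 0.06 at 3 h, 0.06 at 6 h and 0.09 at 12 h, against 0.02, 0.01 and -0.01 over all genes tested. Without the second DMSO array the member medians were -0.007, 0.026 and 0.043, against 0.014, 0.011 and -0.006 over all genes.

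The calls of the probe sets that stand for each gene fell into a few time courses. Higher at both 6 and 12 h were 9 genes: Cyp51, Fdft1, Idi1, Lss, Msmo1, Mvd, Npc2, Sc5d and Srebf2. Insig1 was called higher at 6 h alone, and Fdps, Npc1, Pmvk and Sqle at 12 h alone. Abcg1 was lower at both times, and Nr1h3 and Tm7sf2 were lower at 12 h. Never called against DMSO were 11 genes: Abca1, Dhcr7, Ebp, Hmgcs1, Hsd17b7, Insig2, Mvk, Mylip, Nsdhl, Scap and Stard4. A moderated F test over the 3 contrasts called 17 of 28 members, where it called 25.1% of all genes, and 13 members without the second DMSO array, where it called 23.2% of all genes. Groups did not overlap with DMSO in 5, 13 and 17 members at 3, 6 and 12 h, where 19%, 29.9% and 39.4% of all genes did not overlap. Without that DMSO array these were 8, 16 and 21 members, and 31.1%, 40.7% and 48.7% of all genes.

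**Figure D2:**
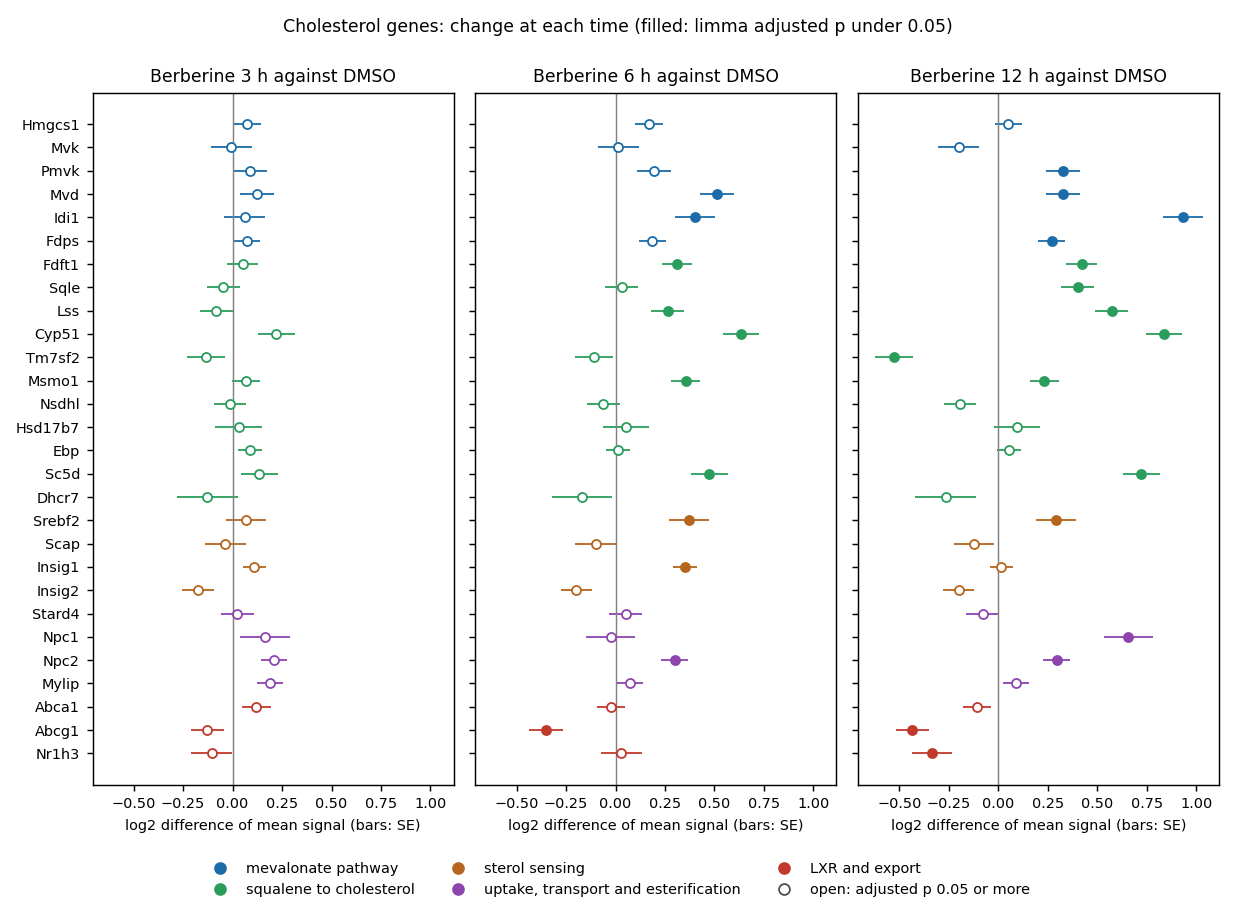
Difference of mean log2 signal from DMSO (horizontal axis; bars are limma's SE, 3 arrays per group) for the 28 genes, coloured by role, in 3 panels for 3, 6 and 12 h. Filled points have a limma adjusted p under 0.05: 0 at 3 h, 11 at 6 h and 16 at 12 h, with Idi1 farthest to the right at 12 h (0.93) and Tm7sf2 farthest to the left (-0.53).

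Counts by role, here and below, are to be read beside the share of all genes called. That share was 7.24% higher and 6.98% lower at 6 h, and 13.7% higher and 14.6% lower at 12 h. Without the second DMSO array it was 12.5% at 6 h and 25.5% at 12 h, in either direction. In the mevalonate branch, 2 of 6 tested genes were called higher at 6 h and 4 at 12 h, and none was called lower. Without the second DMSO array 1 was higher at 6 h and 4 at 12 h. Idi1, which interconverts the isoprenoid building blocks, had log2 signals of 12.85, 12.36 and 12.72 in the DMSO arrays, 12.60, 12.72 and 12.78 at 3 h, 13.02, 12.90 and 13.20 at 6 h, and 13.53, 13.51 and 13.67 at 12 h. All 6 h and 12 h arrays lay above every DMSO array, and the 3 h arrays lay within the DMSO range. The difference from DMSO was 0.40 ± 0.10 at 6 h (limma SE; adjusted p = 0.0135) and 0.93 ± 0.10 at 12 h (a 1.91-fold rise; adjusted p = 2.64e-06). The 6 h call ended without the second DMSO array (0.26, adjusted p = 0.0588) and without the third 6 h array (0.32, adjusted p = 0.074). It also ended when limma was run without the intensity trend (adjusted p = 0.0833).

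Mvd, which decarboxylates the phosphorylated mevalonate to the isoprenoid unit, had log2 signals of 9.02, 8.99 and 8.97 in the DMSO arrays, 9.11, 9.09 and 9.15 at 3 h, 9.59, 9.44 and 9.49 at 6 h, and 9.37, 9.31 and 9.29 at 12 h. The DMSO arrays were the lowest, the 3 h arrays came just above them, and the 6 h arrays were the highest, above all 12 h arrays. This probe set of Mvd rose by 0.51 ± 0.09 at 6 h (1.43-fold; limma adjusted p = 0.000679) and by 0.33 ± 0.09 at 12 h (adjusted p = 0.00779). It is of a type whose probes can bind more than a single transcript. The other probe set of Mvd, nearly as bright, had its larger difference at 12 h. It gave 0.32 at 6 h and 0.47 at 12 h (limma adjusted p = 0.104 and 0.0083 over all probe sets), so the peak at 6 h was not shared. Fdps, which makes farnesyl pyrophosphate, had log2 signals of 12.97, 12.79 and 13.02 in the DMSO arrays, 13.00, 13.06 and 12.93 at 3 h, 13.04, 13.15 and 13.14 at 6 h, and 13.10, 13.25 and 13.23 at 12 h. The 6 h and 12 h arrays lay above all DMSO arrays, by a narrow margin at 6 h. Its difference was 0.19 ± 0.07 at 6 h, which did not pass (limma adjusted p = 0.0737), and 0.27 ± 0.07 at 12 h, which did (adjusted p = 0.00576).

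Pmvk, the kinase that adds the second phosphate to mevalonate, ranged from 10.83 to 11.43 over the 12 arrays and was called at 12 h alone (0.33 ± 0.09; limma adjusted p = 0.00824). Mvk, the kinase before it, ranged from 8.75 to 9.20 and had differences between -0.20 and 0.01, none called. The brightest probe set of Hmgcs1, the synthase that makes HMG-CoA, ranged from 13.94 to 14.31 and gave 0.17 ± 0.07 at 6 h (limma SE; adjusted p = 0.119). Hmgcs1 differed between its probe sets, as described below.

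Among the 11 genes from squalene to cholesterol, 5 were called higher at 6 h, and 6 were called higher and 1 lower at 12 h. Without the second DMSO array 4 were higher at 6 h, and 5 were higher and 3 lower at 12 h. The 6 genes higher at 12 h were Cyp51, Fdft1, Lss, Msmo1, Sc5d and Sqle, while Nsdhl, Hsd17b7, Ebp and Dhcr7 were not called in the probe sets that stand for them. Cyp51, which demethylates lanosterol, had log2 signals of 11.42, 11.02 and 11.46 in the DMSO arrays, 11.53, 11.55 and 11.49 at 3 h, 11.85, 11.97 and 11.99 at 6 h, and 12.03, 12.19 and 12.19 at 12 h. The 4 groups did not overlap at any step, and each later time lay higher. The difference was 0.22 ± 0.09 at 3 h (limma adjusted p = 0.284), 0.63 ± 0.09 at 6 h (1.55-fold; adjusted p = 0.000192) and 0.84 ± 0.09 at 12 h (1.79-fold; adjusted p = 2.75e-06). The 6 h and 12 h calls held under each of the 21 alternatives.

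Lss, which closes squalene epoxide into lanosterol, had log2 signals of 10.95, 10.68 and 10.80 in the DMSO arrays, 10.61, 10.85 and 10.72 at 3 h, 11.06, 11.05 and 11.10 at 6 h, and 11.25, 11.40 and 11.49 at 12 h. Every 12 h array lay above every 6 h array, and those lay above all DMSO and 3 h arrays. The rise was 0.26 ± 0.08 at 6 h (limma adjusted p = 0.0406) and 0.57 ± 0.08 at 12 h (1.49-fold; adjusted p = 5.16e-05). The 6 h call is weak: it ended without the second or the third DMSO array (adjusted p = 0.156 and 0.0908), without the first, the second or the third 6 h array (0.0809, 0.0828 and 0.111) and without the second 12 h array (0.05003). The other probe sets of Lss were not called, and the mean of all its kept probe sets gave -0.22 at 6 h and 0.15 at 12 h (adjusted p = 0.337 and 0.459).

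Sc5d, a desaturase of the late pathway, had log2 signals of 10.79, 10.62 and 10.87 in the DMSO arrays, 10.88, 10.95 and 10.86 at 3 h, 11.06, 11.19 and 11.45 at 6 h, and 11.34, 11.58 and 11.53 at 12 h. The 6 h and 12 h arrays were above all DMSO arrays and overlapped each other. The rise of this probe set was 0.47 ± 0.09 at 6 h (limma adjusted p = 0.00256) and 0.72 ± 0.09 at 12 h (1.65-fold; adjusted p = 1.73e-05). A dimmer probe set of Sc5d fell at 12 h by 0.40 (adjusted p = 0.00792 over all probe sets), and the mean of all its kept probe sets gave -0.06 at 6 h and 0.05 at 12 h (adjusted p = 0.856 and 0.854), so a direction for the gene as a whole is not given.

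Fdft1, which joins farnesyl groups into squalene, had log2 signals of 11.55, 11.36 and 11.39 in the DMSO arrays, 11.45, 11.58 and 11.43 at 3 h, 11.72, 11.77 and 11.75 at 6 h, and 11.68, 11.94 and 11.95 at 12 h. The 6 h and 12 h arrays lay above all DMSO and 3 h arrays. Fdft1 rose by 0.31 ± 0.08 at 6 h (limma adjusted p = 0.0115) and 0.42 ± 0.08 at 12 h (1.34-fold; adjusted p = 0.000505). Its 6 h call ended when limma was run without the intensity trend (adjusted p = 0.0541).

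Sqle, which adds oxygen to squalene, had log2 signals of 12.61, 12.28 and 12.52 in the DMSO arrays, 12.37, 12.52 and 12.37 at 3 h, 12.47, 12.40 and 12.63 at 6 h, and 12.78, 12.96 and 12.88 at 12 h. The 12 h arrays alone stood above the others, and the DMSO, 3 h and 6 h arrays overlapped. Its difference was 0.03 ± 0.08 at 6 h (limma adjusted p = 0.858) and 0.40 ± 0.08 at 12 h (1.32-fold; adjusted p = 0.00149). Msmo1, an oxidase that takes part in the removal of methyl groups after lanosterol, had log2 signals of 12.95, 12.77 and 12.98 in the DMSO arrays, 12.90, 13.03 and 12.98 at 3 h, 13.17, 13.26 and 13.34 at 6 h, and 13.03, 13.11 and 13.26 at 12 h. The 6 h arrays were the highest as a group, and the lowest 12 h array was just above the highest DMSO array. Msmo1 rose by 0.35 ± 0.07 at 6 h (limma adjusted p = 0.00307) and 0.23 ± 0.07 at 12 h (adjusted p = 0.0221). The 12 h call ended without the second DMSO array (0.17, adjusted p = 0.11) and without the third 12 h array (0.17, adjusted p = 0.112). It also ended when limma was run without the intensity trend (adjusted p = 0.0734).

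Tm7sf2, a sterol reductase that acts after Cyp51, went the other way. Its log2 signals were 10.17, 9.86 and 10.21 in the DMSO arrays, 9.91, 10.01 and 9.92 at 3 h, 9.84, 10.04 and 10.04 at 6 h, and 9.47, 9.63 and 9.55 at 12 h. All 12 h arrays lay below every other array, and the remaining groups overlapped. The difference was -0.11 ± 0.10 at 6 h (limma adjusted p = 0.522) and -0.53 ± 0.10 at 12 h (1.44-fold lower; adjusted p = 0.00046), and the 12 h call held under each of the 21 alternatives. Of the 4 genes not called, Nsdhl, which removes methyl groups with Msmo1 and Hsd17b7, gave -0.19 ± 0.08 at 12 h (limma adjusted p = 0.0866) and was called lower without the second DMSO array (-0.28, adjusted p = 0.013). Dhcr7, the last reductase, gave -0.27 ± 0.15 at 12 h (adjusted p = 0.223) and was likewise called lower without that array (-0.46, adjusted p = 0.0229). Ebp, a sterol isomerase, and the representative probe set of Hsd17b7 had differences between 0.01 and 0.09 at all 3 times.

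**Figure D3:**
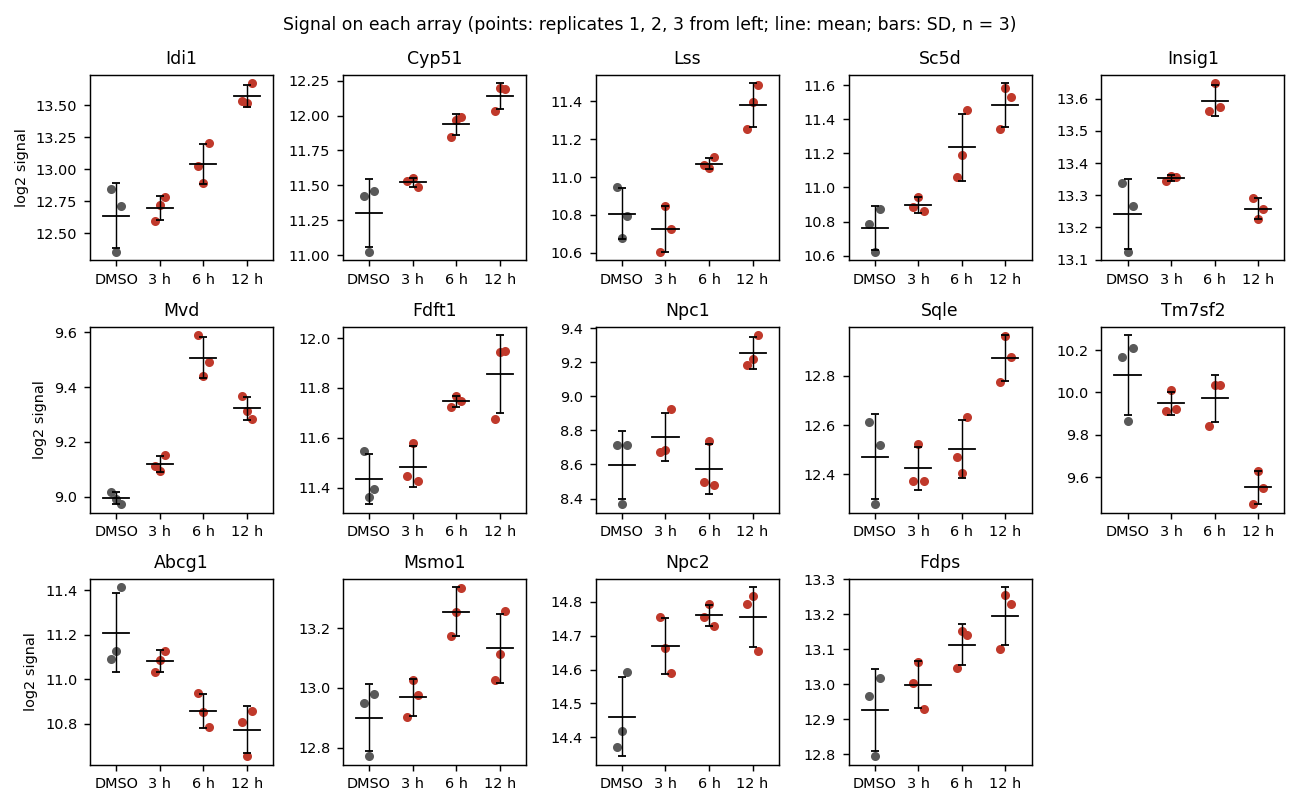
Log2 signal (vertical axis) on each array of the 14 genes with the smallest F test p, by group (horizontal axis: DMSO, then berberine for 3, 6 and 12 h). Points are the arrays, replicates 1 to 3 from left to right, lines are group means and bars the SD (n = 3); Idi1 and Cyp51 climb through 12 h, Insig1 peaks at 6 h, Npc1 and Sqle step up at 12 h, and Abcg1 and Tm7sf2 fall.

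Of 4 sterol sensing genes, 2 were called higher at 6 h and 1 at 12 h, and without the second DMSO array 1 at 6 h and 0 at 12 h. At 12 h 28.2% of all genes were called, so 1 of 4 is no more than that share. Insig1, which anchors SCAP and is itself a known SREBP target, had log2 signals of 13.34, 13.12 and 13.27 in the DMSO arrays, 13.34, 13.36 and 13.36 at 3 h, 13.56, 13.65 and 13.57 at 6 h, and 13.29, 13.23 and 13.26 at 12 h. The 6 h arrays stood above all the others, and the 12 h arrays lay within the DMSO range. Insig1 was higher by 0.35 ± 0.06 at 6 h (1.28-fold; limma adjusted p = 0.000699) and differed by 0.01 ± 0.06 at 12 h (adjusted p = 0.892). Srebf2, which encodes SREBP2, ranged from 8.94 to 9.47 and was higher by 0.37 ± 0.10 at 6 h (limma adjusted p = 0.0193) and 0.29 ± 0.10 at 12 h (adjusted p = 0.0377). Both calls ended when some single arrays were left out. At 6 h the call ended without the first or second DMSO array or the second 6 h array (adjusted p = 0.0728, 0.0658 and 0.079). At 12 h it ended without the first or second DMSO array or the second or the third 12 h array (adjusted p = 0.113, 0.121, 0.0675 and 0.148). The differences in these fits were 0.35, 0.33 and 0.34 at 6 h and 0.27, 0.25, 0.31 and 0.23 at 12 h. The mean of both Srebf2 probe sets gave 0.05 at 6 h and 0.09 at 12 h (adjusted p = 0.898 and 0.741). Scap, the escort of SREBP2, ranged from 10.41 to 10.83 with differences between -0.12 and -0.04. Insig2 ranged from 11.41 to 11.82 with differences between -0.20 and -0.18. None of these was called in the probe sets that stand for the 2 genes, and other probe sets of Insig2 are described below.

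Of 4 uptake and transport genes, 1 was called higher at 6 h and 2 at 12 h, also without the second DMSO array. Npc1, the membrane protein that moves cholesterol out of lysosomes, had log2 signals of 8.71, 8.37 and 8.71 in the DMSO arrays, 8.68, 8.68 and 8.92 at 3 h, 8.50, 8.74 and 8.48 at 6 h, and 9.18, 9.22 and 9.36 at 12 h. The 12 h arrays lay above all other arrays, and the 3 h and 6 h arrays overlapped DMSO. Npc1 gave -0.02 ± 0.12 at 6 h (limma adjusted p = 0.929) and 0.66 ± 0.12 at 12 h (1.58-fold higher; adjusted p = 0.000702). Npc2, the soluble lysosomal protein that hands cholesterol to NPC1, had log2 signals of 14.37, 14.42 and 14.59 in the DMSO arrays, 14.76, 14.66 and 14.59 at 3 h, 14.76, 14.79 and 14.73 at 6 h, and 14.79, 14.82 and 14.66 at 12 h. The 6 h and 12 h arrays lay above all DMSO arrays. Npc2 was higher by 0.30 ± 0.07 at 6 h (limma adjusted p = 0.00655) and 0.29 ± 0.07 at 12 h (adjusted p = 0.00313). This probe set is brighter than 99.4% of genes tested, and quantile normalization took the 6 h difference to 0.11 (adjusted p = 0.0583), and the mean of its kept probe sets gave 0.17 (adjusted p = 0.0732). Stard4, which carries sterol between membranes, and Mylip, a ubiquitin ligase that acts on lipoprotein receptors, were not called in the probe sets that stand for them. The differences in these probe sets ranged from -0.08 to 0.19.

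Of 3 LXR and export genes, 1 was called lower at 6 h and 2 at 12 h, also without the second DMSO array. Abcg1, an exporter of cholesterol to lipoproteins, had log2 signals of 11.09, 11.12 and 11.41 in the DMSO arrays, 11.03, 11.08 and 11.13 at 3 h, 10.94, 10.85 and 10.79 at 6 h, and 10.81, 10.65 and 10.86 at 12 h. The 6 h and 12 h arrays lay below all DMSO and 3 h arrays. Abcg1 fell by 0.35 ± 0.08 at 6 h (limma SE; 1.28-fold lower; adjusted p = 0.01) and by 0.44 ± 0.08 at 12 h (1.35-fold lower; adjusted p = 0.000841). The 6 h call ended without the third DMSO array, the highest of the 3 (-0.25, adjusted p = 0.0519), and with the mean of both probe sets (-0.33, adjusted p = 0.113). Nr1h3, which encodes LXR alpha, ranged from 8.66 to 9.27 and was lower at 12 h by 0.34 ± 0.10 (limma SE; adjusted p = 0.0206). That call ended without the first DMSO array or the first or the third 12 h array (adjusted p = 0.0557, 0.0889 and 0.0564). Abca1, the other exporter, ranged from 13.30 to 13.64 in its brightest probe set, with differences of 0.12, -0.02 and -0.11 at 3, 6 and 12 h, none called.

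Berberine times were also compared with each other, which needs no DMSO array for the difference. From 3 to 6 h, 5 members were called, all higher, where 2.34% of all genes were (1.19% higher and 1.15% lower): Cyp51 by 0.41, Mvd by 0.39, Lss by 0.35, Msmo1 by 0.29 and Insig1 by 0.24 (limma adjusted p between 0.0234 and 0.0431). Most of these 5 calls ended when any 3 h or 6 h array was left out. None was left without the first or the third 3 h array or the second or the third 6 h array, 1 without the second 3 h array and 2 without the first 6 h array. In these fits the share of all genes called fell as well, to between 0.7% and 1.89%. Mvd and Insig1 lost their call in every one of them, with differences of 0.35 to 0.42 and 0.21 to 0.26. None was called with the mean of the kept probe sets of a gene. Insig1 has 1 kept probe set, so its difference stayed at 0.24 there and only its limma adjusted p moved, to 0.0502.

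From 6 to 12 h, 7 members were called, 4 higher and 3 lower, where 5.69% of all genes were called (2.5% higher and 3.18% lower). Npc1 rose by 0.68, Idi1 by 0.53, Sqle by 0.37 and Lss by 0.31, and Tm7sf2 fell by 0.42, Nr1h3 by 0.36 and Insig1 by 0.34 (limma adjusted p between 0.00221 and 0.0451). Idi1, Insig1 and Npc1 kept their call without any single array. Sqle lost it without the first or second 6 h array or the second 12 h array (adjusted p from 0.0527 to 0.0763), and Tm7sf2 without the second or the third 6 h array or the first 12 h array (0.0539 to 0.0693). Lss lost it without any of the 6 h arrays or the second or the third 12 h array (0.0669 to 0.136), and with the mean of its probe sets (0.37, adjusted p = 0.136). Nr1h3 lost it without each array of the series other than the second 12 h array (0.0507 to 0.16).

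From 3 to 12 h, 10 members were called, 7 higher and 3 lower, where 17.7% of all genes were called (8.01% higher and 9.71% lower). Idi1 rose by 0.87, Lss by 0.65, Cyp51 by 0.62, Sc5d by 0.59, Npc1 by 0.49, Sqle by 0.45 and Fdft1 by 0.37. Tm7sf2 fell by 0.40, Abcg1 by 0.31 and Abca1 by 0.23 (limma adjusted p for the 10 between 1.18e-05 and 0.0318). Abca1 lost its call without the second or the third 3 h array or the first or second 12 h array (adjusted p from 0.0917 to 0.119), and Abcg1 without the third 3 h array or the second 12 h array (0.0622 and 0.0881). With the mean of the kept probe sets, Lss gave 0.38, Sc5d 0.22 and Abca1 0.25 (adjusted p = 0.0659, 0.4 and 0.212).

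Probe sets of a gene did not always move together. 16 members had more than 1 kept probe set and 12 had 1. Tested as 56 probe sets, 0 were called at 3 h (11 had an unadjusted limma p under 0.05), 19 at 6 h (17 higher, 2 lower) and 32 at 12 h (27 higher, 5 lower), where 0.998%, 10.5% and 23.3% of all kept probe sets were called. Without the second DMSO array these were 0, 13 (10 higher, 3 lower) and 26 (20 higher, 6 lower). The share of all kept probe sets called in that fit is not given here. Idi1, Cyp51, Fdft1 and Mvd were called higher at 12 h in every kept probe set, with differences of 0.86 to 0.93, 0.31 to 0.84, 0.39 to 0.42 and 0.33 to 0.47. So was Msmo1, with 0.23 and, in a dim probe set with a mean of 5.64, 1.85 ± 0.56 (limma SE).

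Other genes split. Sc5d gave 0.72 in the probe set that stands for it and -0.40 in another (limma adjusted p = 3.75e-05 and 0.00792 over all probe sets). Insig2 gave -0.30 and 0.36 in its dimmer probe sets (adjusted p = 0.0148 and 0.00801). At 6 h the first of these Insig2 probe sets gave -0.34 (adjusted p = 0.0152) and the second 0.04, not called. Lss gave 0.57 in the probe set that stands for it, a type whose probes can bind more than a single transcript, and -0.19 and 0.07 in its other probe sets, neither of them called. Srebf2 gave 0.29 and -0.12, the second not called. Npc2 gave 0.29 and 0.33 in its brightest pair and -0.10 in a dimmer probe set, the last not called. Which transcripts each probe set reads was not tested.

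At 12 h, 5 genes were called in another probe set although the one that stands for the gene was not. Hmgcs1 had 0.45 and 0.27 in a pair of probe sets (limma adjusted p = 0.000631 and 0.042), beside 0.05 and 0.04 in its brightest pair. At 6 h the first 2 of these and a dimmer one gave 0.48, 0.32 and 0.92 (adjusted p = 0.00132, 0.0323 and 0.0211). Hsd17b7 had 0.63 and, in its brightest probe set, an _x_at type, 0.48 (adjusted p = 0.000271 and 0.00678), beside 0.09 in the one that stands for it, Stard4 had 0.41 (adjusted p = 0.0397), and Abca1 had 0.87 in a dim probe set with a mean of 7.14 (adjusted p = 0.0125). The same probe set of Stard4 gave 0.50 at 6 h (limma adjusted p = 0.0281). The remaining gene is Insig2, given above.

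**Figure D4:**
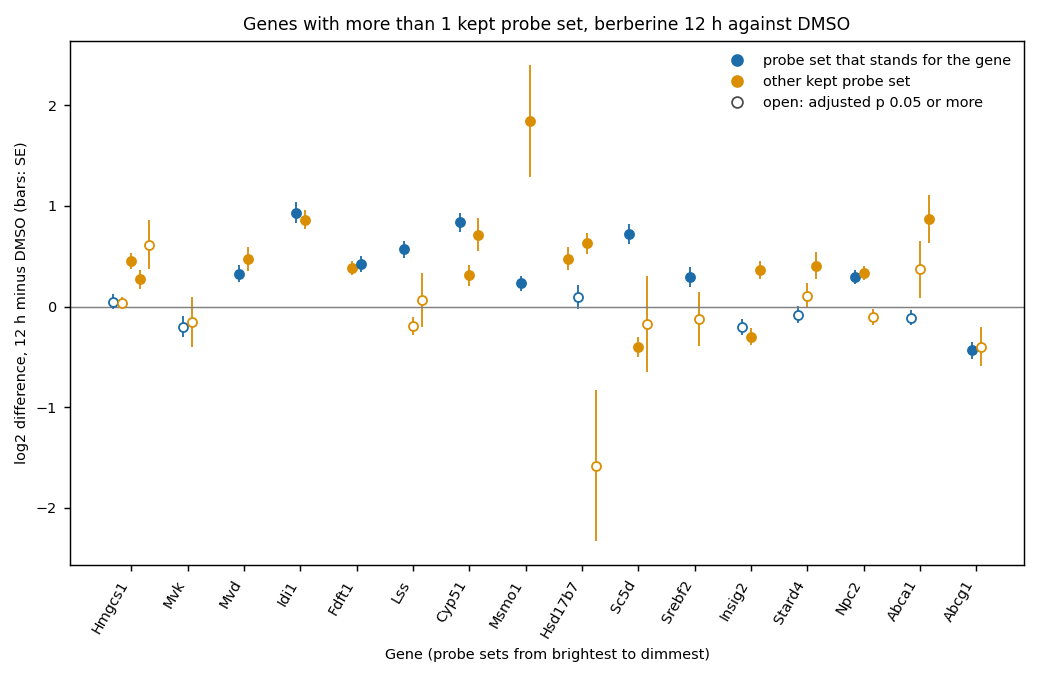
Difference of mean log2 signal, berberine 12 h minus DMSO (vertical axis; bars are limma's SE, 3 arrays per group), for each kept probe set of the 16 genes that have more than 1 (horizontal axis, probe sets from brightest to dimmest). Blue points stand for the gene, orange points are its other probe sets, and filled points have an adjusted p under 0.05: Sc5d shows filled points at 0.72 and -0.40, and Insig2 at -0.30 and 0.36.

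Beyond the members, 4 lists of related genes were counted in the same fit, to be read beside the 1.9%, 14.2% and 28.2% of all genes called at 3, 6 and 12 h. Counts without the second DMSO array are to be read beside 2.05%, 12.5% and 25.5%. Of 13 tested genes (18 listed) on side branches of the pathway and in sterol sensing and processing, 0 were called higher and 1 lower at 3 h, 1 higher and 3 lower at 6 h, and 3 higher and 4 lower at 12 h, with medians of -0.02, 0.02 and -0.16. Without the second DMSO array 1 was lower at 3 h, 1 higher and 3 lower at 6 h, and 2 higher and 3 lower at 12 h. Rnf145, a ubiquitin ligase of the sterol sensing machinery, was lower at all 3 times (-0.44, -0.66 and -0.54; limma adjusted p = 0.00185, 7.53e-06 and 1.61e-05). Srebf1, which encodes SREBP1 and also stands among the LXR targets, was lower at 6 and 12 h (-0.39 and -0.74; adjusted p = 0.000721 and 2.66e-07). Mbtps2, a protease that frees SREBP in the Golgi, was higher at 6 and 12 h (0.25 and 0.45; adjusted p = 0.00959 and 2.31e-05), and Erlin1, a membrane protein of sterol-regulated degradation, at 12 h (0.49; adjusted p = 0.000169).

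Of 10 tested SREBP2 targets outside the members (12 listed), 0 were called at 3 and 6 h (1 at each time had an unadjusted limma p under 0.05), and 3 were higher and 1 lower at 12 h, with medians of -0.09, -0.07 and -0.01. With the second DMSO array left out, 0 were called at 3 h, 1 lower at 6 h, and 2 higher and 2 lower at 12 h. At 12 h Aacs, which activates acetoacetate for lipid synthesis, was 0.49 higher, Acss2, which activates acetate, 0.43 higher, and Lpin1, a phosphatidate phosphatase, 0.37 lower (limma adjusted p = 0.000597, 0.00313 and 0.00125). The mean of all kept Aacs probe sets, in contrast, gave -0.02 (adjusted p = 0.98). Pcyt2, an enzyme of phosphatidylethanolamine synthesis, gave 0.32 (adjusted p = 0.0412), a call that ended without the second DMSO array (0.22, adjusted p = 0.193) and without the second or the third 12 h array (0.30 and 0.25, adjusted p = 0.113 and 0.162). In the fit on means of kept probe sets the Pcyt2 difference was unchanged at 0.32, and only its limma adjusted p moved, to 0.0567.

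Of 8 tested LXR targets outside the members (10 listed), 0 were called at 3 h (2 had an unadjusted limma p under 0.05), 1 higher and 2 lower at 6 h, and the same numbers at 12 h, with medians of -0.11, -0.23 and -0.12. When the second DMSO array was left out, 1 was lower at 3 h, and 2 were lower and 0 higher at both 6 and 12 h. Fasn, the fatty acid synthase, was lower at 6 and 12 h (-0.35 and -0.79; limma adjusted p = 0.0203 and 8.26e-06), and its 6 h call ended without the first or the third DMSO array or the first or second 6 h array (adjusted p = 0.0616, 0.0927, 0.0814 and 0.0566). Scd1, a fatty acid desaturase, gave 0.33 and 0.28 (adjusted p = 0.0186 and 0.0255), and quantile normalization took these to 0.04 and 0.05 (adjusted p = 0.648 and 0.472), and the mean of its probe sets took the first to 0.20 (adjusted p = 0.175). Without the first DMSO array Scd1 gave 0.26 at 6 h and 0.21 at 12 h, and without the second 0.27 and 0.21, none of them called.

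Of 21 tested genes of sterol uptake, transport and esterification outside the members (24 listed), 1 was higher at 3 h, 3 higher and 1 lower at 6 h, and 8 higher and 1 lower at 12 h, with medians of 0.08, 0.10 and 0.27, and the counts were the same without the second DMSO array. Gramd1b, which moves cholesterol from the plasma membrane to the endoplasmic reticulum, was higher at 6 and 12 h (0.71 and 0.91; limma adjusted p = 6.51e-05 and 1.09e-06), though the mean of its probe sets gave 0.15 at 6 h (adjusted p = 0.184). Osbpl9, an oxysterol-binding protein, was higher at 12 h (0.40; adjusted p = 2.01e-05). Cyp7b1, which hydroxylates oxysterols, was higher at all 3 times (0.67, 0.71 and 0.40; adjusted p = 0.00423, 0.000647 and 0.0151), and its 12 h call ended without the first DMSO array (0.30, adjusted p = 0.0915) or the first 12 h array (0.37, adjusted p = 0.0528). Scarb1, a receptor for high-density lipoprotein, was lower at 6 and 12 h (-0.39 and -0.58; adjusted p = 0.0146 and 0.000295), the 6 h call ending without the first or the third DMSO array or the second 6 h array (adjusted p = 0.0638, 0.0546 and 0.0675).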

How the data were processed

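Gene expression was measured on 12 single-colour 3' oligonucleotide arrays, 3 for each of DMSO and berberine for 3, 6 and 12 h. The authors deposited log2 signals, each array in its own column. MAS5 stands in the submitters' processing notes without a version. In these values the linear signal had a 2% trimmed mean of 500.004 on each array, so the arrays had been scaled by a single factor each, and brightness-dependent bias and noise of dim probe sets remain. Scanner files were not analysed here, and the number of arrays limits the precision.

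The detection threshold was the median log2 value of all probe sets other than the 64 controls (5.77, a linear signal of 54.6). A probe set was kept if at least 3 of 12 arrays reached it. Names came from the platform annotation: 34945 probe sets had 1 symbol, 932 several and 9160 none, and 0 symbols changed through Entrez identifiers in RefSeq's gene table. The kept probe set with the highest mean stood for its gene, with an _x_at type used only where there was no other.

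Tests used R 4.3.3 and limma 3.58.1: a mean for each group was fitted to the 12 arrays together (residual degrees of freedom: 8), eBayes was run with its intensity trend, and two-sided p-values were adjusted by Benjamini-Hochberg over all genes or all kept probe sets. The scripts were tested on simulated data. Figures used Python 3.11.15 and matplotlib 3.10.9. Alternatives were quantile normalization, other filters, other treatment of dim values and of several probe sets, no trend, fewer arrays, and the replicate number as a block. Those on probe set counts, counts by role or list and groups that do not overlap were chosen after seeing the data.

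The members and the wider lists were chosen with earlier results of these data known. Values on every array are given for the 14 members with the smallest F test p among the 17 called against DMSO. Of each wider list, up to 4 genes with the smallest F test p among those called are named. Further probe sets and single-array results were named after their values were seen.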

Additional observations from a re-analysis of the deposited data

Results flagged for a closer look

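Differences between berberine times were tested directly, as contrasts of groups under the same treatment, and 22 of them passed (limma adjusted p under 0.05); the values are log2 differences. From 3 to 6 h these were Cyp51 (0.414), Mvd (0.3883), Lss (0.3462), Msmo1 (0.2859) and Insig1 (0.2412). From 6 to 12 h they were Npc1 (0.6806), Idi1 (0.5316), Sqle (0.3694), Lss (0.3083), Insig1 (-0.3364), Nr1h3 (-0.3648) and Tm7sf2 (-0.4199). From 3 to 12 h they were Idi1 (0.8716), Lss (0.6545), Cyp51 (0.6164), Sc5d (0.5879), Npc1 (0.4931), Sqle (0.4485), Fdft1 (0.3697), Abca1 (-0.23), Abcg1 (-0.3075) and Tm7sf2 (-0.3958). Insig1 is the member that was called upward from 3 to 6 h and downward from 6 to 12 h. The contrasts of 6 h with 3 h and of 12 h with 6 h share the 6 h arrays. Groups of 3 arrays were too small for the check for single outlying samples.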

How the results depend on the processing

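Of 27 calls of members against DMSO, 15 held under all 21 alternatives, among them Cyp51, Mvd, Msmo1 and Insig1 at 6 h and Idi1, Cyp51, Npc1, Tm7sf2 and Abcg1 at 12 h. For Msmo1 the mean of kept probe sets includes the dim probe set that was kept only through berberine arrays. That alternative is therefore no support for its call. Averaging all kept probe sets of a gene turned Lss at 6 h to -0.22, Sc5d at 6 h to -0.064, Aacs at 12 h to -0.016 and Abca1 from 3 to 12 h to 0.25, none of them called. It ended the calls of Sc5d (0.05) and Lss (0.15) at 12 h and of Srebf2 at 6 and 12 h (0.05 and 0.09). It also gave 1 called member at 3 h, 7 at 6 h (6 shared with the 11 called by single probe sets) and 0 from 3 to 6 h. The count from 3 to 6 h, 5 in the reported fit, was 3 with quantile normalization, 3 with no filter, 2 with every probe set as a feature and 1 with no intensity trend. With no trend there were 2 from 6 to 12 h and 9 probe sets at 6 h. Leaving out each array in turn gave 0 to 1 members at 3 h, 8 to 11 at 6 h, 13 to 17 at 12 h, 0 to 6 from 3 to 6 h, 3 to 6 from 6 to 12 h, 8 to 12 from 3 to 12 h and 13 to 18 in the F test, and 0 to 2, 11 to 18 and 23 to 31 probe sets at 3, 6 and 12 h. In the same fits the share of all genes called ran from 0.964% to 2.19% at 3 h and from 9.2% to 14.6% at 6 h. It ran from 22.1% to 28.3% at 12 h, and from 0.7% to 2.66% for 6 h against 3 h. The cause of these changes was not tested. Quantile normalization moved no median over all genes by more than 0.1.

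Same-numbered arrays did not deviate together over all genes: over 18 pairs the correlation of deviations from the group means ran from -0.04 to 0.03. No pairing by number was seen, but this cannot show whether same-numbered arrays were made together. With the replicate number as a block, 10 members were called at 6 h and 17 at 12 h; Lss at 6 h (adjusted p = 0.0507), Insig1 from 3 to 6 h (0.0558) and Nr1h3 from 6 to 12 h (0.0566) were no longer called.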
